A study of Bos taurus with 20 samples.

Results

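Prostaglandin F synthases and related aldo-keto and carbonyl reductases were followed in bovine endometrium, the lining of the uterus, at an early and a late interval after calving. The set comprised 5 of the 25400 genes named on the array, LOC782922, AKR1C3, AKR1C4, AKR1B1 and CBR1. A probe belonged to it when the array design gave one of these gene names. The probe A_73_P168292, described on the array as LOC782922, was included by its own probe name. Together these were 14 of the 43653 noncontrol probes. Of the 14 probes, 13 gave a signal well above background in 8 or more of the 20 biopsies and were analysed further. The genes were chosen by the late minus early differences measured on these same arrays, so that difference is described below without a test.

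The animals were 10 cows, numbered 1 to 10, and each was biopsied in both periods. The late biopsy always followed the early one, so time after calving cannot be told apart from the age of the cow or the order of sampling. The early biopsy was taken 42 to 86 days after calving (60.1 ± 13.3, mean and SD of 10 cows) and the late one 343 to 436 days after it (388.9 ± 27.5, mean and SD of 10 cows). Both were cut with forceps from the uterine horn next to the corpus luteum, 7 days after oestrus, and no treatment or allele is recorded for either group. RNA of each biopsy was labelled with Cy3 and hybridised to 1 array, so each period had 10 arrays. Levels are log2 processed signals minus the 75th percentile of the same array, so that 0 is that percentile and 1 unit is a doubling of signal. They are compared within a probe only, since a level also depends on the probe.

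Prostaglandin F2α from the endometrium ends the life of the corpus luteum in cattle, and the hormone is also abundant around calving. Several NADPH-dependent reductases can make it: aldo-keto reductases of the AKR1C group and aldose reductase (AKR1B1) reduce prostaglandin H2, and carbonyl reductase (CBR1) can reduce prostaglandin E2. The AKR1C enzymes also convert steroids, including progesterone and androgens, and aldose reductase converts glucose to sorbitol in the polyol pathway.

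The AKR1C genes are similar in sequence, and the probe sequences show where their probes overlap. Positions follow the coordinates of the array annotation on HGSC Btau_3.1, and sequences run 5′ to 3′ with the bases that differ between the paired probes in capitals. The LOC782922 probes lie on the minus strand at chr13:43876147-43876206 (A_73_P168292) and chr13:43876121-43876180 (A_73_P073941). They share 34 bases with 1 difference, A43G counted from the 5′ end of A_73_P168292. A stretch of 30 bases from that overlap is shown because both probes rest on it.
LOC782922 A_73_P168292: tctatacttggtggaAgtgtttaaaagaag
LOC782922 A_73_P073941: tctatacttggtggaGgtgtttaaaagaag
The next pair, on the plus strand at chr13:43765452-43766362 (A_73_P251696) and chr13:43765442-43765501 (A_73_P112066), is annotated to AKR1C4. Over 50 shared bases they differ at T5C, G22C and A41T, counted from the 5′ end of A_73_P251696.
AKR1C4 A_73_P251696: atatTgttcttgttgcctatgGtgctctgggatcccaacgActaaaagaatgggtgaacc
AKR1C4 A_73_P112066: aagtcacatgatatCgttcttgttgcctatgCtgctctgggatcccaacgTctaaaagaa
The last pair sets the AKR1C3 probe A_73_P113946 (plus strand, chr13:43727691-43729164) against a probe of the neighbouring gene LOC527068 (plus strand, chr13:43804471-43804530). Their 42 shared bases differ at G1A, C2T, A11T and G29A, counted from the 5′ end of A_73_P113946.
AKR1C3 A_73_P113946: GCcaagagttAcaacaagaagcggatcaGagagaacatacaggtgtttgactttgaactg
LOC527068 A_73_P177172: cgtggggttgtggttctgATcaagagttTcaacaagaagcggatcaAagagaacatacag
The array annotation matches A_73_P113946 to 3 RefSeq transcripts, of AKR1C3, LOC527068 and AKR1C4. The signal of A_73_P113946 may therefore come from several AKR1C genes, which cannot be told apart by this probe, whereas A_73_P251696 and A_73_P112066 are each matched to 1 RefSeq transcript. The LOC782922 probe A_73_P168292 overlapped probes of LOC782061 (27 bases, 85.2% identical) and LOC527068 (32 bases, 84.4% identical), and A_73_P073941 overlapped probes of LOC782061 (53 bases, 81.1% identical) and LOC785762 (46 bases, 82.6% identical).

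Signal was similar across the arrays. Per array, 71.8% to 80.2% of 43803 spots outside the controls exceeded background clearly, and 0 were saturated. The arrays lay on 5 slides read on 1 scan day, and slide 3 alone held both periods (early cows 9 and 10, late cows 1 and 2). With cow and slide both as fixed blocks, the late minus early estimate takes the changes of cows 3, 4, 7 and 8 with reversed sign. It is far less precise than the mean change over cows. Each slide other than slide 3 held 1 period, so slide and period can hardly be told apart. Whether calls lost or signs turned under the fixed-block fit come from the slide was not tested, since that fit is too imprecise. The early biopsies of cows 4 and 9 stood apart in their marker genes. Their summed linear levels of 6 smooth muscle markers were 130.7 and 131.3, with 46.1 to 67.0 in the other early arrays, and their summed levels of 11 macrophage and monocyte markers were the highest of the 10, at 16.9 or slightly above, with 4.84 to 11.0 in the others. The early biopsy of cow 9 also had the lowest summed level of 11 epithelial markers, 25.3, where the other early arrays had 60.2 to 88.8. Cow 4 had the highest of these, 88.8, so the 2 biopsies were at opposite ends for epithelium. The mean changes of LOC782922, of 4 AKR1C probes and of 4 AKR1B1 probes are also given without cows 4 and 9. So are some of the correlations. The part of tissue composition in the results was not tested.

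LOC782922, described on the array as similar to prostaglandin F synthetase II, was lower in the late biopsy of all 10 cows by both of its probes. With A_73_P168292 the early levels ran from -2.42 (median -1.59) to -0.32, and the late levels from -8.52 (median -5.61) to -3.87. Every early array was above every late array. The late signal was well above background on 8 of 10 arrays and not in cows 8 and 9. The mean change was -4.19 ± 0.46 (SE, n = 10 cows), an 18.3-fold higher signal early than late. Each SE here and below is the moderated one of limma, and the SD of the 10 changes was 1.64. With the late arrays of cows 8 and 9 raised to the lowest level that is well above background on those arrays, the falls were 4.97 and 6.68. The mean change was then -4.01. That level is the lowest at which any probe on the array was well above background, so these falls are not lower bounds. The smallest fall was that of cow 4, which fell by 2.17.

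The probe A_73_P073941 gave the same picture. Early levels of LOC782922 ran from -2.89 (median -2.04) to -0.11, and late levels from -9.24 (median -5.90) to -4.32. The periods again did not overlap, and the late signal was well above background on 9 of 10 arrays, cow 8 being the exception. The mean change was -4.17 ± 0.45 (SE, n = 10 cows), and -3.94 with the late array of cow 8 raised in the same way. The SD between cows was 0.80 early and 1.38 late. In bulk tissue, fewer cells of a type and less RNA per cell cannot be told apart.

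**Figure D1:**
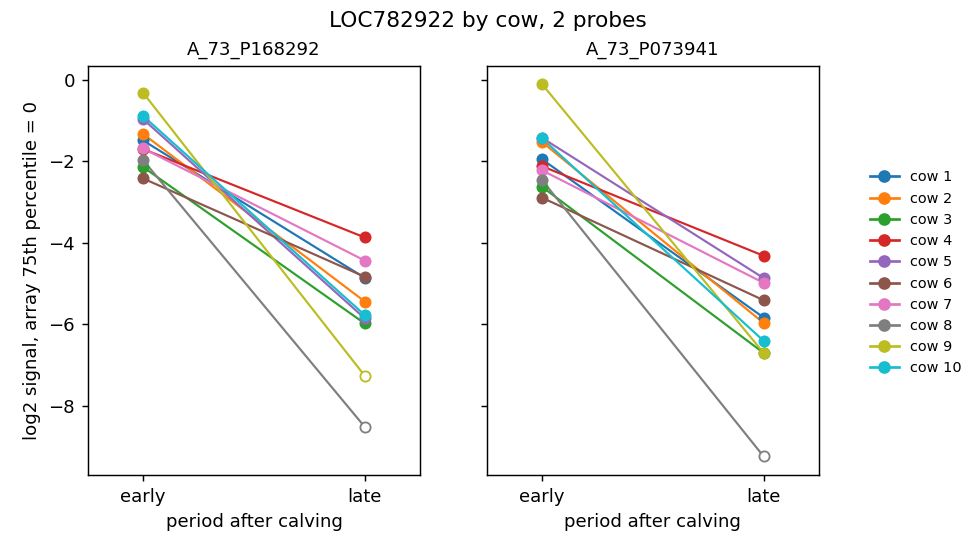
Level of LOC782922 in each cow (1 line per cow) in the early and the late biopsy, by 2 probes; the y axis is log2 signal with the array's 75th percentile at 0, and open symbols mark arrays not well above background. All 10 lines fall, from between -2.42 and -0.32 to between -8.52 and -3.87 with A_73_P168292.

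The size of the LOC782922 fall depended on how dim signals were handled. With normexp background correction in place of the scanner's own subtraction the changes were -2.80 and -2.62, a 6.99-fold and a 6.14-fold higher early signal. That setting, wherever used here, also added a constant offset to every signal, which narrows log2 differences between dim signals. The parts of the offset and of the background method were not tested apart. With slide as a fixed block, an imprecise fit here, the LOC782922 changes were -5.65 and -5.01, a 50.3-fold and a 32.3-fold higher early signal. Within slide 3 they were -4.54 and -5.13. Without cows 4 and 9 they were -4.10 and -4.11. Non-overlap of the periods held for 2 of the 13 tested member probes, both of LOC782922. The periods did not overlap in 0.101% of all tested probes, all late arrays lay below all early ones in 0.0681%, and 1.13% passed the limma test of late minus early, but LOC782922 was chosen by this same difference, so nothing is read from these shares.

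**Figure D2:**
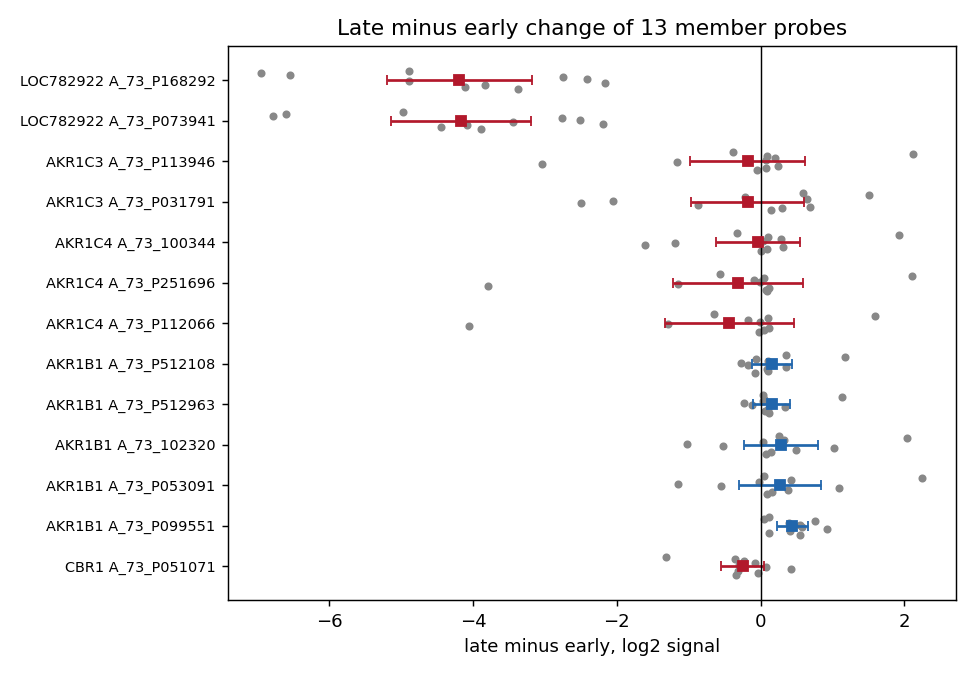
Late minus early change of the 13 tested member probes in log2 units; grey points are the 10 cows, squares the mean with its 95% interval from the fit, red for a negative and blue for a positive mean. The LOC782922 probes sit at -4.19 and -4.17, and the means of the other 11 lie between -0.43 and 0.44.

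The AKR1C3 and AKR1C4 genes encode hydroxysteroid dehydrogenases of the same family, and their mean changes were small beside that of LOC782922. With the AKR1C3 probe A_73_P113946, early levels ran from -2.61 (median -1.14) to -0.02 and late levels from -3.18 (median -1.40) to 0.39. The periods overlapped over most of their range. The mean change was -0.18 ± 0.36 (SE, n = 10 cows), with large opposite changes in single cows. AKR1C3 fell by 3.03 in cow 4 and by 1.16 in cow 5, and it was 2.12 higher late in cow 9. In the other 7 cows the change lay between -0.38 and 0.24.

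The AKR1C4 probe A_73_P251696 ran from -2.03 (median -0.56) to 0.89 early and from -2.89 (median -0.86) to 0.96 late. Its mean change was -0.32 ± 0.41 (SE, n = 10 cows), and the same 3 cows stood out, with changes of -3.79 in cow 4, -1.15 in cow 5 and 2.10 in cow 9. A_73_P112066 moved likewise, with a mean change of -0.43 ± 0.41 (SE, n = 10 cows), a fall by 4.06 in cow 4 and a change of 1.59 in cow 9. The third AKR1C4 probe, A_73_100344 at chr13:43769036-43769095, ran from -0.05 (median 1.22) to 1.5 early and from -0.16 (median 0.72) to 1.93 late. Its mean change was -0.04 ± 0.27 (SE, n = 10 cows). In cow 4 it fell by 1.60, in cow 5 it fell by 1.19 and in cow 9 it was 1.93 higher late. Without cows 4 and 9 the mean changes of these 4 AKR1C probes were -0.11, -0.19, -0.23 and -0.09.

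These small AKR1C means changed sign within slide 3 and with slide as a fixed block. Within slide 3 the late minus early change was 1.52 for A_73_P113946, 1.67 for A_73_P251696, 1.28 for A_73_P112066 and 0.74 for A_73_100344. With slide as a fixed block it was 1.59, 2.12, 1.84 and 0.72. That fit reverses the changes of cows 3, 4, 7 and 8, so the fall of cow 4 counts there as a rise. With slide as a random block the changes stayed negative, at -0.15, -0.28, -0.40 and -0.01. The comparison within slide 3 sets early cows 9 and 10 against late cows 1 and 2, so it also carries the differences between those cows.

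Other AKR1C3 probes were dim. A_73_P031791, at chr13:43729806-43729865, exceeded background clearly in 7 early and 5 late biopsies. Its early levels ran from -8.92 (median -6.26) to -3.86 and its late levels from -9.14 (median -6.36) to -4.53. The mean change was -0.18 ± 0.36 (SE, n = 10 cows), and its sign was not stable. It was 0.03 with normexp background correction, 0.08 without cow 5, 0.03 without cow 6, 0.13 within slide 3 and -1.13 with slide as a fixed block. Cows 2, 3, 4, 7 and 10 were well above background in both biopsies, cows 1, 8 and 9 in neither, and cows 5 and 6 only early. A_73_P216212, annotated to a liver cDNA clone, was well above background on 1 of 20 arrays and was not tested.

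**Figure D3:**
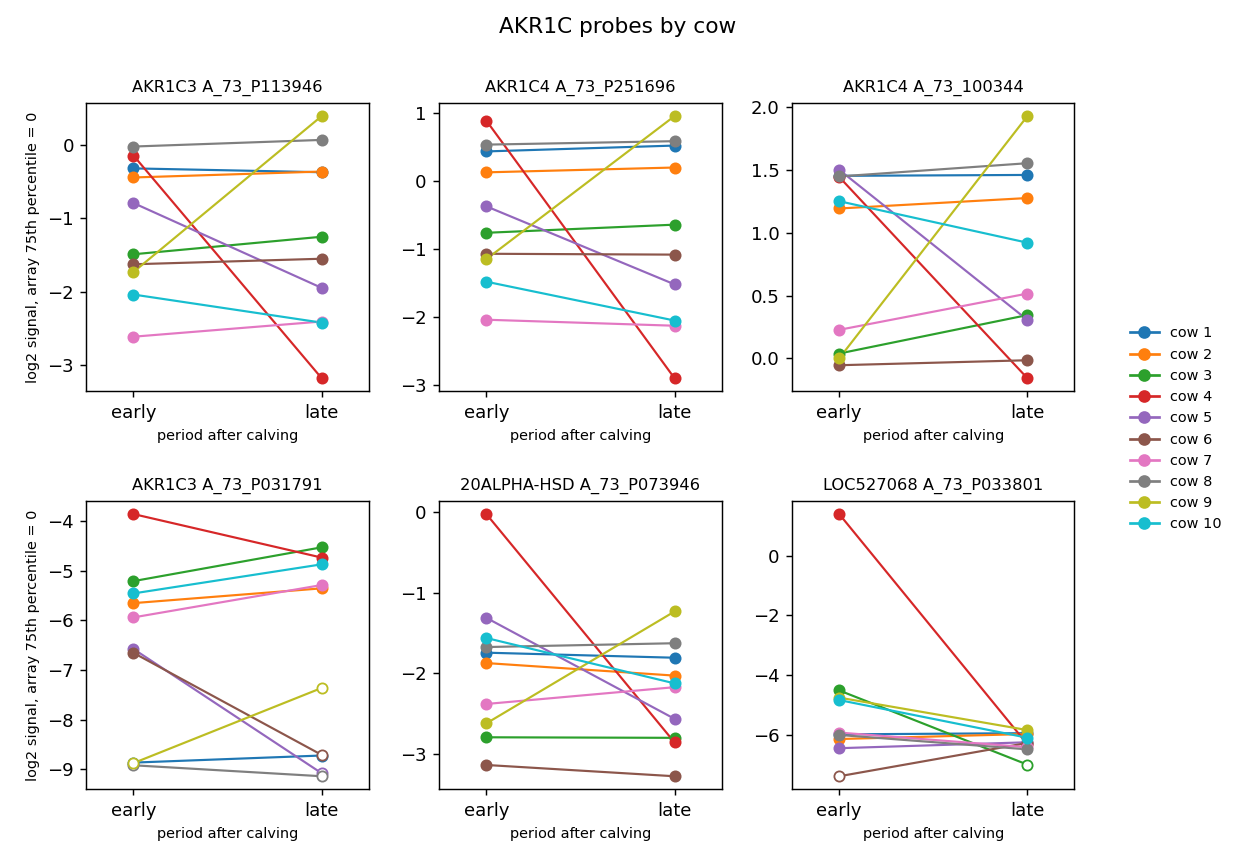
Levels of 4 AKR1C probes of the set and of 2 related probes in each cow, early and late; the y axis is log2 signal with the array's 75th percentile at 0, and open symbols mark arrays not well above background. Cow 4 falls and cow 9 rises in the AKR1C3 probe A_73_P113946 and in both AKR1C4 probes, while most other cows stay level; the early biopsy of cow 4 is far above the rest for LOC527068 A_73_P033801.

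Whether a cow's 2 biopsies were alike was tested with a moderated F test of the cow coefficients in limma, with Benjamini-Hochberg adjustment over all probes tested; 2.27% of these passed. Of the 13 member probes, AKR1C3 A_73_P031791 passed this test (F = 9.69, adjusted p = 0.0271 in limma). Its call was lost without cow 1, 2, 3 or 8 (adjusted p between 0.0514 and 0.0732 in limma). The other 12 member probes had adjusted p between 0.176, for CBR1, and 0.719, for LOC782922 A_73_P168292, by the same limma test. Without cow 4, AKR1C4 A_73_P112066 passed (adjusted p = 0.0438 in limma). Without cows 4 and 9, AKR1C3 A_73_P113946 and the 3 AKR1C4 probes passed (adjusted p between 0.00280 and 0.0338 in limma), but those cows were left out after their AKR1C changes had been seen, so these calls are no independent evidence.

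Probes of other AKR1C-like genes or transcripts, 12 in all, were taken from the array's descriptions after the data had been seen. Of these, 9 were tested for late minus early and 0 passed in limma. LOC782061, described as AKR1C1-like, had levels from -9.13 (median -3.87) to 2.05 early and from -8.79 (median -8.18) to -2.55 late, and it exceeded background clearly in 7 early and 3 late biopsies. Its change was -2.68 ± 1.14 (SE, n = 10 cows, adjusted p = 0.184 in limma), which was -1.78 without cow 4 and turned to 3.63 with slide as a fixed block. The early array of cow 4 was the highest in several of these probes. LOC527068 A_73_P033801 reached 1.39 there, against -7.38 to -4.51 in the other 9 early arrays. It fell by 7.71 to the late biopsy of that cow, where its signal was not well above background. 20ALPHA-HSD, the bovine 20α-hydroxysteroid dehydrogenase that inactivates progesterone, changed by -0.34 ± 0.31 (SE, n = 10 cows, adjusted p = 0.523 in limma). That change was -0.06 without cow 4, -0.53 without cow 9, 0.17 within slide 3 and 0.90 with slide as a fixed block.

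AKR1B1, aldose reductase, had 5 probes, and 4 of them ran together. With A_73_P512108 (minus strand, chr4:101752306-101752363) early levels ran from 5.40 (median 6.42) to 6.57 and late levels from 6.2 (median 6.43) to 6.79. The early biopsy of cow 9 was the lowest, with the other early arrays between 6.07 and 6.57. The mean change was 0.16 ± 0.13 (SE, n = 10 cows), and it was 0.04 without cow 9. A_73_P512963 changed by 0.15 ± 0.12, A_73_102320 by 0.28 ± 0.24 and A_73_P053091 by 0.27 ± 0.26 (each SE, n = 10 cows). Cow 9 rose by 2.03 with A_73_102320 and by 2.25 with A_73_P053091, and cow 6 fell by 1.03 and by 1.15. Without cows 4 and 9 the 4 changes were 0.01, 0.01, -0.03 and -0.08, and with slide as a fixed block they were 0.31, 0.25, -0.46 and -0.51.

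The probe A_73_P053091, at chr4:101757615-101757674 on the minus strand, is shown because it held the widest range of changes between cows among the AKR1B1 probes.
AKR1B1 A_73_P053091: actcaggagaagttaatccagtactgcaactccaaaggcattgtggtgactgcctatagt
The fifth probe, A_73_P099551, is placed farther along the chromosome, at chr4:101768992-101769051, and is annotated to another clone, described as similar to aldehyde reductase. It was dim, with early levels from -6.30 (median -6.04) to -5.42 and late levels from -5.90 (median -5.48) to -5.12. It was higher late in 10 of 10 cows, by 0.44 ± 0.10 (SE, n = 10 cows), although the periods overlapped. The change was 0.17 with normexp background correction, -0.26 with slide as a fixed block and -0.22 within slide 3.

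CBR1, carbonyl reductase, was measured by A_73_P051071 (plus strand, chr1:151608394-151608453). Early levels ran from -2.40 (median -1.30) to -0.26 and late levels from -2.09 (median -1.52) to -1.12, so the late arrays lay inside the early range. CBR1 was lower late in 8 of 10 cows, with a mean change of -0.25 ± 0.14 (SE, n = 10 cows). Cow 10 fell by 1.32, and without that cow the change was -0.13. With slide as a fixed block the change was -1.04.

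**Figure D4:**
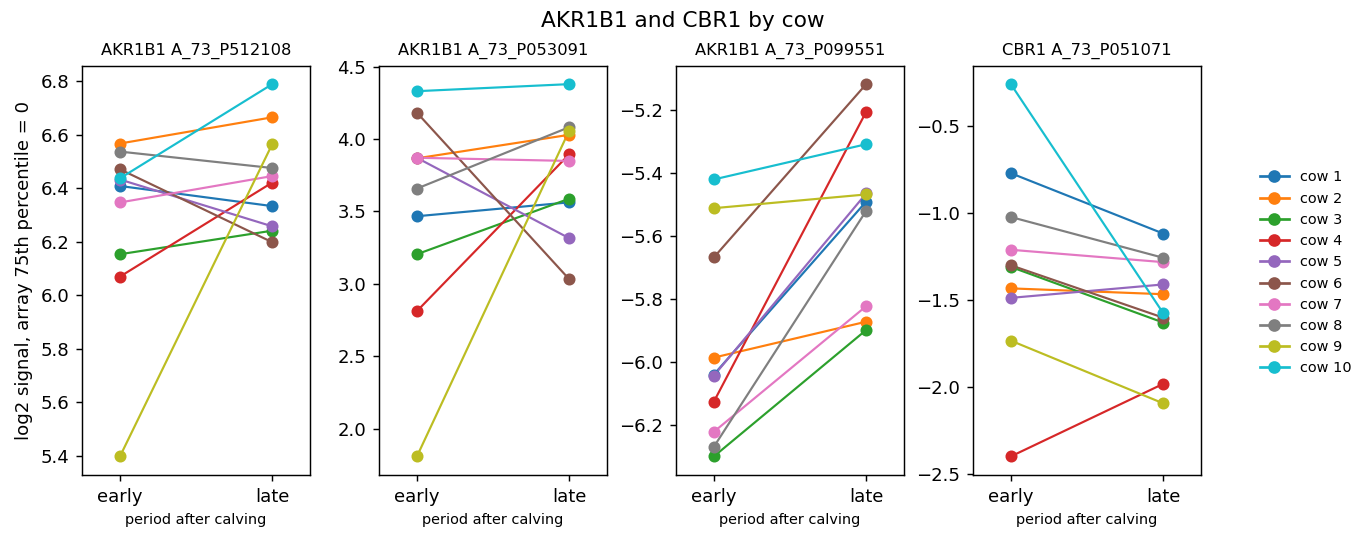
Levels of 3 AKR1B1 probes and of CBR1 in each cow, early and late; the y axes are log2 signal with the array's 75th percentile at 0 and differ between panels. The early biopsy of cow 9 is lowest for A_73_P512108 (5.40) and A_73_P053091 (1.81), all 10 lines rise for A_73_P099551, and CBR1 falls most in cow 10.

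Days after calving within a period were not used to choose the genes. Slopes per 10 days were fitted in limma with cow as a random block. Of all tested probes, 0% passed for the early slope, the late slope or their difference (2161, 364 and 1219 probes had an unadjusted p under 0.05). LOC782922 A_73_P168292 had a slope of 0.09 ± 0.27 per 10 days early (adjusted p = 0.955 in limma) and 0.06 ± 0.13 late (unadjusted p = 0.635 in limma). The smallest unadjusted p among the members belonged to AKR1B1 A_73_P099551, with a late slope of 0.08 ± 0.03 per 10 days (unadjusted p = 0.0117 in limma), which did not pass after adjustment.

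Deviations from the period means were compared between probes over the 20 arrays, as a description, since the arrays come in pairs from 10 cows and share their scaling. Of 78 relations among the member probes, the closest were between AKR1B1 A_73_102320 and A_73_P053091 (r = 0.99, rho = 0.98) and among AKR1C3 A_73_P113946 and the AKR1C4 probes A_73_P251696 and A_73_P112066. The LOC782922 probes had r = 0.91 (Spearman's rho = 0.89), and r = 0.80 without the late arrays of cows 8 and 4, the farthest from the median. AKR1C3 A_73_P113946 had r = 0.99 (rho = 0.99) with AKR1C4 A_73_P251696 and r = 0.98 (rho = 0.98) with LOC527068 A_73_P177172. With A_73_100344 the same probe had r = 0.78 (rho = 0.75), and with the other AKR1C3 probe, A_73_P031791, r = -0.35 (rho = -0.35). LOC782922 A_73_P168292 and AKR1C3 A_73_P113946 had r = -0.54 (rho = -0.48), which was -0.33 without the late arrays of cows 8 and 4.

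**Figure D5:**
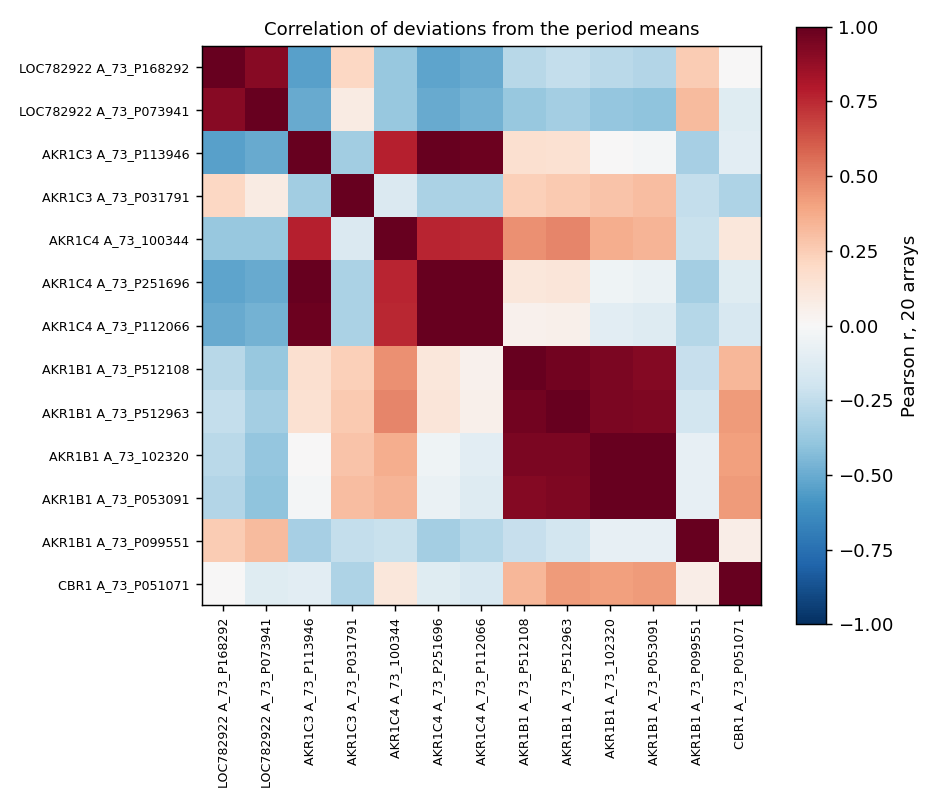
Pearson correlation between the 13 tested member probes of the deviations from the period means over 20 arrays, on a scale from -1 (blue) to 1 (red). The LOC782922 pair (0.91), 4 AKR1C probes and 4 AKR1B1 probes form blocks of high correlation, while A_73_P031791 and A_73_P099551 stand outside the blocks of their own genes.

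Among 104 relations of member probes with marker lists, all AKR1B1 probes but A_73_P099551 ran opposite to the smooth muscle, stromal and macrophage markers. A_73_P099551 had r = 0.19, 0.40 and -0.14 with these lists. A_73_P512108 had r = -0.81 (rho = -0.74) with the mean of the 6 smooth muscle markers, and r = -0.72 without the early array of cow 9 and the late array of cow 10. With the 11 epithelial markers it had r = 0.59 (rho = 0.17), and r = -0.09 without those 2 arrays. With the stromal and with the macrophage markers it had r = -0.62 (rho = -0.34 and -0.57), and r = -0.45 and -0.51 without those 2 arrays. LOC782922 A_73_P168292 had r = -0.02 with the epithelial, 0.33 with the smooth muscle, 0.30 with the stromal and -0.34 with the macrophage markers, and 0.54 with the stromal markers without the late arrays of cows 8 and 4.

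Among 12845 other named genes, those whose deviations were most like each member's brightest probe were listed. For LOC782922 they were PARD3B (r = 0.78), PLIN3, ROBO1, XPO7 and DNAI4 (r = 0.71). Without cows 4 and 9, r was 0.74 for PARD3B, 0.81 for PLIN3 and 0.59 for both XPO7 and DNAI4. For AKR1C3 they ran from SYNDIG1 (r = 0.81, rho = 0.78) through VTI1B, VNN2 and ITPA to M6PR (r = 0.75). AKR1C4 A_73_100344 was most like 20ALPHA-HSD (r = 0.86, rho = 0.92), and H2AC14, DNAJB6 and H2BC21 (r = 0.76) were also among the closest. For AKR1B1 they were SLC30A5, a zinc transporter (r = 0.95), the junction proteins OCLN (r = 0.92) and PKP2 (r = 0.91), ZDHHC3 and C15H11orf71. Without cow 9, r was 0.93 for SLC30A5, 0.78 for OCLN and 0.81 for PKP2. Without cows 4 and 9 it was 0.80 for ZDHHC3 and 0.70 for C15H11orf71. For CBR1 they were JMY (r = 0.88), BORCS5, STAC2, SNX21 and DMXL1 (r = 0.81). The r of JMY was 0.72 without the early arrays of cows 4 and 10. Leaving out cows 4 and 9 gave 0.70 for BORCS5 and 0.60 for STAC2. It gave 0.77 for SYNDIG1 and 0.65 for VNN2 with AKR1C3, and 0.64 for DNAJB6 with AKR1C4.

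Late minus early was tested for other genes of the same pathways by limma with cow as a fixed block. Of all 33763 tested probes, 119 were higher late (0.352%) and 262 lower late (0.776%), and the median change was -0.02. An unadjusted p under 0.05 in limma was reached by 8050 of them (23.8%), so list counts at that level stand beside this share. With normexp background correction the split was 177 higher of 380, and with quantile normalization 292 higher of 687. Of 7 tested further aldo-keto reductases, 0 passed in limma (1 at an unadjusted p under 0.05). Their smallest p values belonged to AKR1B10, a retinal and aldehyde reductase, with 0.81 ± 0.28 (SE, adjusted p = 0.121 in limma), and AKR1E2, with 0.18 ± 0.10 (SE, adjusted p = 0.299 in limma). AKR1B10 was dim, exceeding background clearly in 6 early and 7 late biopsies, and its change was 0.22 with normexp background correction. The changes of AKR1B10 and AKR1E2 turned to -0.48 and -0.47 with slide as a fixed block. Of 20 carbonyl and other short-chain reductases 1 was higher late, RDH5, a retinol dehydrogenase, by 0.62 ± 0.13 (SE, higher in 10 of 10 cows, adjusted p = 0.0453 in limma). In that list 6 genes had an unadjusted p under 0.05 in limma.

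Of 19 prostanoid enzymes, transporters and receptors, 0 passed in limma (5 at an unadjusted p under 0.05). TBXAS1, thromboxane synthase, changed by -0.83 ± 0.20 (SE, adjusted p = 0.0637 in limma), lower late in 9 of 10 cows. PTGR2, a prostaglandin reductase that acts on prostaglandin breakdown products, changed by 0.37 ± 0.09 (SE, adjusted p = 0.0666 in limma). Of 20 steroid-converting genes, STAR, which carries cholesterol into mitochondria, fell by 0.82 ± 0.17 (SE, lower in 9 of 10 cows, adjusted p = 0.0458 in limma). Among these 20 genes, 7 had an unadjusted p under 0.05 in limma. The STAR call was lost without any one of the 10 cows (adjusted p up to 0.0956 in limma), and the RDH5 call without cow 1, 2, 3, 6, 8, 9 or 10. With slide as a fixed block both calls were lost, and the STAR change was 0.48.

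In limma 0 genes passed among 8 of the polyol and osmolyte pathway, 9 of NADPH supply, 16 NRF2 targets and 8 steroid receptors and cycle markers. The smallest p values were those of SLC5A3, a myo-inositol transporter (-0.78 ± 0.23), and KHK (0.35 ± 0.20) in the first list, and of TKT (-0.39 ± 0.12) and PGLS (-0.20 ± 0.08) of the pentose phosphate pathway in the second. In the third they were FTL, ferritin light chain (-0.35 ± 0.09), and GSR, glutathione reductase (-0.36 ± 0.14). In the fourth they were MSX1 (0.39 ± 0.19) and ESR2, oestrogen receptor beta (0.69 ± 0.41). These 8 changes are given with SE over 10 cows, and their adjusted p in limma lay between 0.0697 and 0.318. At an unadjusted p under 0.05 in limma the lists held 1, 3, 5 and 0 genes, beside 23.8% of all tested probes. KHK turned to -0.74 and ESR2 to -0.64 with slide as a fixed block. The list medians were 0.01, -0.20, -0.17 and -0.08, beside -0.02 over all probes, and 0.08 for further aldo-keto reductases, 0.12 for short-chain reductases, -0.07 for prostanoid genes and 0.05 for steroid-converting genes.

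Marker lists describe the tissue beside these results. Of 11 macrophage and monocyte markers, 4 fell late: VSIG4 by 1.47 ± 0.16, CD68 by 1.79 ± 0.22, MSR1 by 0.85 ± 0.13 and TYROBP by 1.07 ± 0.18 (each SE, lower in 10 of 10 cows, adjusted p between 0.00472 and 0.0291 in limma). Their list's summed level had a median of 8.30 early (lowest 4.84) and 4.21 late (3.49 to 10.4). NKG7, of cytotoxic lymphocytes, fell by 1.2 ± 0.19 as 1 of 9 lymphocyte markers (adjusted p = 0.0256 in limma). HAND2, a transcription factor of uterine stroma, fell by 0.87 ± 0.18 as 1 of 10 stromal markers (adjusted p = 0.0463 in limma). Changes were negative in 10 of 11 macrophage, 7 of 9 lymphocyte and 10 of 10 stromal markers, with medians of -0.77, -0.18 and -0.28. At an unadjusted p under 0.05 in limma these 3 lists held 10, 4 and 5 genes, beside 23.8% of all tested probes. The calls of HAND2, TYROBP, NKG7 and MSR1 were lost without single cows, those of VSIG4 and CD68 were not, and with slide as a fixed block all 6 were lost. Of 11 epithelial, 6 smooth muscle, 5 endothelial, 3 red blood cell and 5 liver markers 0 passed, and the smallest adjusted p among them was 0.0639 (TTR, limma). At an unadjusted p under 0.05 these lists held 3, 0, 1, 1 and 1 genes. The summed epithelial level had a median of 70.9 early (25.3 to 88.8) and 77.3 late, with a late minimum of 58.4. The part of these markers in the LOC782922 fall was not tested.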

How the data were processed

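Gene expression in 20 endometrial biopsies was measured on 1-colour Agilent arrays. The deposited scanner files hold intensities (processed signals, background-subtracted by Agilent Feature Extraction 10.5.1.1, per the file headers and the submitters' processing notes). The authors' deposited value table holds log2 values centred on each probe's median, and it matched the scanner values (lowest r over arrays 0.99997). Control spots were left out, repeat spots averaged, and log2 signals scaled to each array's 75th percentile. Probes well above background on at least 8 of 20 arrays were tested (33763 of 43653). Signal over background limits the precision of dim probes.

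Late minus early and cow effects were fitted with limma 3.58.1 in R 4.3.3 with cow as a fixed block, and day slopes with cow as a random block. P-values were adjusted by Benjamini-Hochberg over all tested probes. SEs of changes and slopes are limma's moderated ones, in which a probe's variance is drawn toward that of all tested probes. The scripts were tested on simulated data. The design text states that each animal was sampled in both periods, and equal cow numbers in the titles paired the biopsies, although source names number the late biopsies differently. Deviations of a cow's biopsies correlated at -0.11 to 0.77 (median 0.41). The members and gene lists were chosen with earlier results of these data known. All member probes are given, with up to 4 called genes per list, or the 2 of smallest p, and the 5 genes most like each member, of which 1 is not reported here. Genes were named through accessions and symbols of the ARS-UCD2.0 RefSeq table, otherwise by the array design. Coordinates are those of HGSC Btau_3.1, per the file headers. Alternatives covered background correction (normexp with a constant offset), scaling, filters, probes per gene, slide, the replicate block, the deposited table and leaving out each cow.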

Additional observations from a re-analysis of the deposited data

Results flagged for a closer look

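Within a period of 10 arrays, 14 highest or lowest levels stood farther from the rest than Dixon's 95% limit. Chance gives such a gap in about 1 in 20 groups, and 112 sets of arrays were examined. Most lay in 2 biopsies, with 6 in the early biopsy of cow 4 and 5 in that of cow 9. In cow 9 early, LOC782922 A_73_P073941 was highest at -0.11 (next -1.43), AKR1B1 A_73_P512108 was lowest at 5.40 (next 6.07) and A_73_P512963 was lowest at 5.33 (next 5.97). In the same biopsy the epithelial keratin KRT18 was lowest at 1.33 and the muscle filament gene DES highest at 3.77. In cow 4 early, the highest levels were those of LOC527068 A_73_P033801 at 1.39, A_73_P055991 at 0.67 and A_73_P073936 at -0.22, of ENSBTAT00000024453 at 1.11 and of LOC538060 at -3.01. KHK was lowest there at -0.89. The late biopsy of cow 8 had the lowest LOC782922 A_73_P073941 level, -9.24 (next -6.70), where that probe was not well above background. CDH5 was highest in cow 7 early at -3.02, and NKG7 in cow 3 late at 0.54.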

How the results depend on the processing

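The LOC782922 fall kept its direction under every alternative run, between -5.65 and -2.80 with A_73_P168292 and between -5.13 and -2.62 with A_73_P073941. AKR1B1 A_73_P099551 turned to -0.26 with slide as a fixed block and -0.22 within slide 3, and STAR to 0.48 with slide as a fixed block. Of 52 genes or probes named, counting those with no call, slide as a fixed block turned the sign of 26 and the comparison within slide 3 that of 11. The fixed-block fit reverses the changes of cows 3, 4, 7 and 8, and slide 3 sets different cows against each other. Whether these turns come from the slide was not tested, since slide and period can hardly be told apart in these arrays. Of all tested probes, 381 passed late minus early in limma. The count was 687 with quantile normalization, 135 with no filter, 64 with slide as a random block and 67 to 465 without single cows. With slide as a fixed block it was 0 (585 at an unadjusted p under 0.05 in limma) and within slide 3 it was 0 (2729 unadjusted). Both comparisons are far less precise than the main fit. Pairing mattered, with 195 calls without the replicate block and 1536 with the replicate block as a random effect, which also called TBXAS1, PTGR2 and FTL. The share of higher calls was 31.2%, against 46.6% with normexp, 42.5% with quantile normalization and 41.0% when arrays were scaled by the median detected probe. It was 59.6% without cow 7 (118 of 198 calls) and 21.6% without cow 10. The cow effect, 767 probes, gave 453 with 1 probe per gene, 113 with slide as a fixed block, 349 to 2117 without single cows and 4894 without cows 4 and 9, an alternative chosen after seeing the data. Day slopes gave 0 calls in each alternative run. The cause of these shifts was not tested.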
